A study of Mus musculus with 24 samples.

Results

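The subject is a set of 6 genes that had large rises in some transgenic mouse lines and not in others: Rad51b, Pclo, Dct, Krt18, Plcd1 and Pcdh17. They are measured by 11 of 45037 probe sets and are 6 of the 18193 genes with a probe set of their own. Transcripts were measured on Affymetrix arrays in hearts of 90-day-old mice, with 6 biological replicates in each of 4 genotypes. The hearts came from mice with the beta1-Arg389 form of the beta1-adrenergic receptor (ARG), the beta1-Gly389 form of it (GLY) or the adenylyl cyclase AC5 (AC5), and from non-transgenic mice (NTG). Each transgene was a human cDNA under the alpha-myosin heavy chain promoter, which is active in heart muscle cells, so the model is an excess of the protein in that cell type. The number of founder lines and the strain are not given in the sources used here, so the transgene cannot be told apart from its place of insertion. The 6 genes were picked for their differences between transgenic and NTG hearts in some lines and not in others. Their differences from NTG and between lines are therefore a description without a test.

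Values are ratios to the NTG level, given as log2, so 0 is the NTG level and 1 is a doubling. They range from 0.0636 to 34.8 as ratios, carry no signal level and cannot show how abundant a transcript was or whether heart muscle markers were present. In a whole heart, more transcript per cell and more cells of a kind cannot be told apart. Differences are fitted log2 differences ± SE from limma over all 24 arrays, with n = 6 hearts per genotype, and for other genes a change is called at a Benjamini-Hochberg adjusted p under 0.05 over all probe sets. The labels name no batches. Differences are also given for replicates 1 to 3 (the first set) and replicates 4 to 6 (the second set) apart, a split chosen with earlier results of these data known. The adenylyl cyclase gene Adcy5, used to check the AC5 label, was at 0.31 to 0.54 in AC5 hearts and -0.10 to 0.13 in NTG hearts at 1 of its 4 probe sets (difference 0.41 ± 0.09, adjusted p = 0.0813). The transgene is human and the probes are of mouse sequence, so Adcy5 does not settle the AC5 label.

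The 6 genes have different roles. Rad51b acts in homologous recombination, the repair of double-strand breaks from a sister copy. Pclo (piccolo) is a giant scaffold of the presynaptic active zone, where it lies with its homolog bassoon, and it can bind a cAMP-sensing exchange factor. Dct, dopachrome tautomerase, acts after tyrosinase in the synthesis of dark melanin and is a marker of melanocytes, which also occur in the mouse heart. Krt18 is the acidic keratin that pairs with Krt8 in the filaments of simple epithelia and of mesothelium. Plcd1 is a phospholipase C that cleaves a membrane phosphoinositide when calcium rises, and Pcdh17 is a protocadherin, a cell adhesion protein best known from neurons. The receptor signals through Gs to adenylyl cyclase and cAMP, so ARG, GLY and AC5 act along the same pathway.

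The promoter windows of the genes that were high in the same hearts are shown so that their upstream letters can be compared. Rad51b, Dct and Krt18 were high in both receptor lines, and Plcd1 and Pcdh17 in AC5. The windows hold 250 bases before and 50 after the start in RefSeq, build GRCm38.p6. They are at chr12:79297032-79297331, plus strand (Rad51b), chr14:118052197-118052496, minus strand (Dct), chr15:102027966-102028265, plus strand (Krt18), chr9:119093453-119093752, minus strand (Plcd1) and chr14:84443313-84443612, plus strand (Pcdh17). For Rad51b and Plcd1 the first of 2 windows is shown. Capitals mark the E box CATGTG and the GC box GGGCGG, on either strand.
Rad51b: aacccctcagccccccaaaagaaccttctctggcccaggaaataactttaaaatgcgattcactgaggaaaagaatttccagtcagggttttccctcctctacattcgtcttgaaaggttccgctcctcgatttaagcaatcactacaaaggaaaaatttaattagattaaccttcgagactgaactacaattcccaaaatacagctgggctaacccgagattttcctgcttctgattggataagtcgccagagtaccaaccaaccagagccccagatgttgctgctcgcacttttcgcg
Dct: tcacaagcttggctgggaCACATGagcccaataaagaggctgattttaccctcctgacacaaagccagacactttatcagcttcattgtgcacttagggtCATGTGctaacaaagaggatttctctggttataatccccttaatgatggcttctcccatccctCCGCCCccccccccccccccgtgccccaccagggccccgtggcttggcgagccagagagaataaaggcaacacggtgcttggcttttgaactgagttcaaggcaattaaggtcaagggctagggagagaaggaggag
Krt18: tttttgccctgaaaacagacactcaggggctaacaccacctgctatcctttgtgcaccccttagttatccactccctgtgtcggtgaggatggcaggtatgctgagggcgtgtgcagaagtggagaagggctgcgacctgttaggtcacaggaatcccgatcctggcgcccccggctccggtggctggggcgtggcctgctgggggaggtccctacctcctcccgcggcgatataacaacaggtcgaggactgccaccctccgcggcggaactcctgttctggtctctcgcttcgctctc
Plcd1: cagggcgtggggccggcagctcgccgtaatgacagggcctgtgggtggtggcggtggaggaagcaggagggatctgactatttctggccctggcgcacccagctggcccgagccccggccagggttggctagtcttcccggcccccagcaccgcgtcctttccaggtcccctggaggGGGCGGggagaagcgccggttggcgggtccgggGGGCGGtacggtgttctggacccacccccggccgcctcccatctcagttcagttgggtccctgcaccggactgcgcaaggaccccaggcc
Pcdh17: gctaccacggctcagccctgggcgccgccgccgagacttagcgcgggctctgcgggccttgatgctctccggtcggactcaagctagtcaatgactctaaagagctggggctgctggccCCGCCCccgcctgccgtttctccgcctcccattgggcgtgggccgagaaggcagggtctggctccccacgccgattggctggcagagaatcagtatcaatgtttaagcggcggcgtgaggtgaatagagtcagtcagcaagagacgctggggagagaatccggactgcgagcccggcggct

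The cAMP response element TGACGTCA, or its half-site TGACG, was in none of the 8 windows of the 6 genes on either strand. Over all 32851 windows of this length, 1.79% hold the full element and 20.8% the half-site, which is part of the full element. Dct holds CATGTG at base -150 and its reverse complement CACATG at -232 before the start, and 14.2% of all windows hold that E box, which the melanocyte factor Mitf can bind. The E box CACGTG (7.15% of all windows) and the TATA letters TATAAA (13.6%) were in none of the 8 windows. The GC box, in 35.7% of all windows, was in those of Dct, Plcd1, Pcdh17 and Pclo, and not in those of Rad51b and Krt18. The window of Pclo, chr5:14514668-14514967 on the plus strand, holds 4 GC boxes. It is not shown because none of the other genes was high in GLY hearts alone. GC content was 45% in the Rad51b window shown, 53.3% for Dct, 61.3% for Krt18, 71.3% for Plcd1 and 65% for Pcdh17. These matches describe the letters of the windows only.

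Rad51b had the widest differences. Its leading probe set 1421430_at, where leading means the largest fitted rise among a gene's probe sets, lay between 4.11 and 4.52 in ARG hearts (median 4.30), between 1.60 and 4.62 in GLY hearts (median 3.45), between 0.28 and 0.77 in AC5 hearts (median 0.46) and between -0.32 and 0.37 in NTG hearts (median 0.04). Every ARG and GLY heart was above every AC5 and NTG heart. AC5 overlapped with NTG only through its lowest heart, replicate 6 (0.28), which was below the highest NTG heart (0.37). The lowest GLY heart still stood at 3.03 times the NTG level, and the mean level was 20.1 times in ARG, 10.3 times in GLY and 1.43 times in AC5. ARG and GLY overlapped, and ARG minus GLY was 0.96 ± 0.31, given without a test. The SE is pooled over genotypes, whose SD was 0.15 in ARG, 1.17 in GLY, 0.19 in AC5 and 0.22 in NTG hearts. The fitted difference was 4.30 ± 0.31 for ARG minus NTG, 3.34 ± 0.31 for GLY minus NTG and 0.48 ± 0.31 for AC5 minus NTG. In the first and second set it was 4.24 and 4.35 in ARG, and 2.78 and 3.89 in GLY. After quantile normalization, which gives all arrays the same distribution, it was 2.98 in ARG and 2.78 in GLY.

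The second Rad51b probe set, 1430486_at, moved far less. It lay between 0.24 and 0.70 in ARG hearts, between 0.05 and 0.35 in GLY hearts, between -0.32 and 0.07 in AC5 hearts and between -0.21 and 0.16 in NTG hearts. All ARG hearts were above all NTG hearts, while GLY overlapped with NTG. The differences were 0.52 ± 0.08 in ARG, 0.19 ± 0.08 in GLY and -0.11 ± 0.08 in AC5, each against NTG. ARG minus GLY was 0.33 ± 0.08 at this probe set, given without a test, and the hearts of the 2 lines overlapped. Which part of the Rad51b transcript each probe set reads is not analysed here.

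Dct, the melanin enzyme, was picked as a rise in GLY hearts, but it was high in ARG hearts too. Its only probe set, 1418028_at, lay between 1.36 and 2.33 in ARG hearts (median 1.97), between 0.56 and 2.07 in GLY hearts (median 1.27), between -0.11 and 0.45 in AC5 hearts (median 0.16) and between -0.19 and 0.27 in NTG hearts (median -0.02). All receptor hearts stood above all AC5 and NTG hearts. ARG and GLY overlapped, and ARG minus GLY was 0.56 ± 0.20, given without a test. Against NTG the difference was 1.88 ± 0.20 in ARG, 1.32 ± 0.20 in GLY and 0.17 ± 0.20 in AC5. In the first and second set it was 2.14 and 1.61 in ARG, and 1.24 and 1.40 in GLY. After quantile normalization it was 1.28 in ARG and 1.18 in GLY. Dct is thus not restricted to GLY in these data.

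Krt18, the epithelial keratin, was high in both receptor lines as well. At its only probe set, 1448169_at, ARG hearts lay between 1.15 and 2.15 (median 1.67), GLY hearts between 0.49 and 2.08 (median 1.01), AC5 hearts between -0.29 and 0.45 (median 0.32) and NTG hearts between -0.24 and 0.25 (median -0.03). Again no receptor heart overlapped with an AC5 or NTG heart, and ARG overlapped with GLY. The difference was 1.71 ± 0.20 for ARG minus NTG, 1.15 ± 0.20 for GLY minus NTG and 0.24 ± 0.20 for AC5 minus NTG. ARG minus GLY was 0.57 ± 0.20, given without a test. The first and second set gave 1.42 and 2.01 in ARG, and 1.18 and 1.11 in GLY. After quantile normalization it was 1.10 in ARG and 1.05 in GLY.

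**Figure D1:**
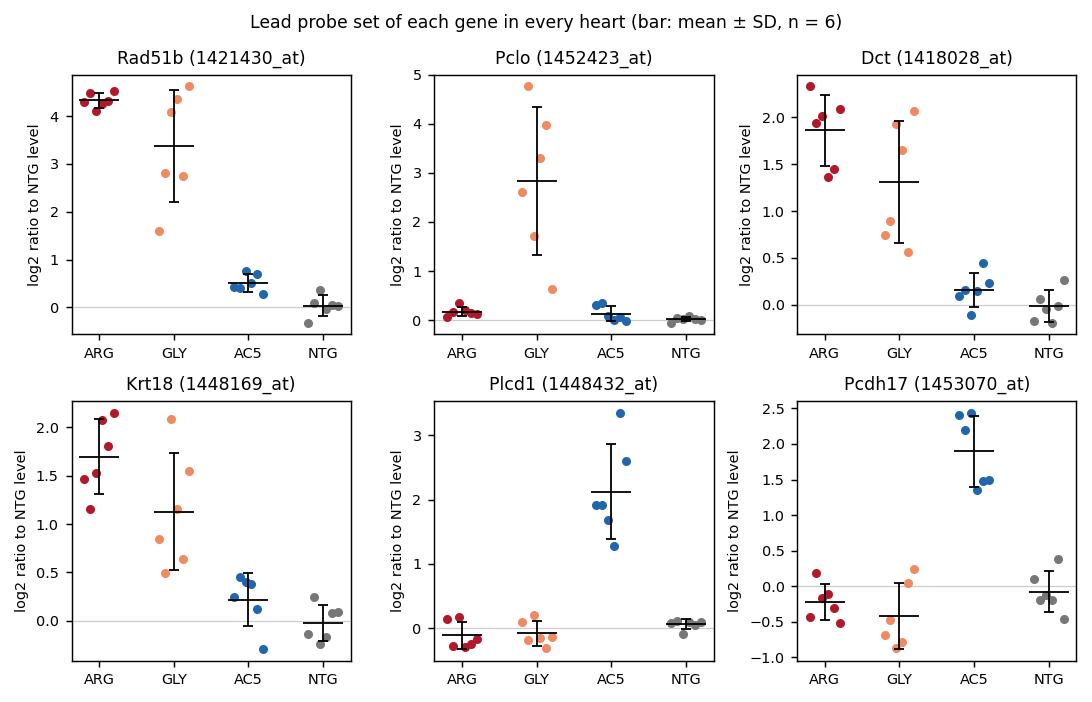
The leading probe set of each gene in every heart, as log2 of the ratio to the NTG level (vertical axis), by genotype (horizontal axis). Points are hearts, and bars are the mean ± SD of 6 hearts. Rad51b, Dct and Krt18 are high in ARG and GLY hearts, Pclo in GLY hearts alone, and Plcd1 and Pcdh17 in AC5 hearts alone.

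Pclo, the active zone scaffold, was high in GLY hearts alone and at 1 of its 3 probe sets. At 1452423_at GLY replicates 1 to 6 had 2.61, 4.76, 1.72, 3.30, 3.98 and 0.64. ARG hearts lay between 0.07 and 0.34, AC5 hearts between -0.02 and 0.36 and NTG hearts between -0.05 and 0.09. All GLY hearts were above all hearts of the other genotypes, but they spread from 1.56 to 27 times the NTG level, with an SD of 1.50 in GLY against 0.05 in NTG. The difference was 2.81 ± 0.38 for GLY minus NTG, 0.15 ± 0.38 for ARG minus NTG and 0.11 ± 0.38 for AC5 minus NTG, with an SE pooled over genotypes. The GLY difference was 3.02 in the first set and 2.60 in the second, and leaving out any 1 array gave 2.43 to 3.25.

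The other probe sets of Pclo stayed near the NTG level in the mean. At 1455373_at GLY replicates 1 to 6 had 0.18, 0.67, -0.03, 0.11, 0.43 and -0.27, against -0.13 to 0.12 in NTG hearts. The highest GLY hearts there, replicates 2 and 5, were also the highest at 1452423_at, and replicates 3 and 6 were the lowest at both. At 1419392_at GLY hearts lay between -0.28 and 0.26 and NTG hearts between -0.30 and 0.24. The GLY minus NTG difference was 0.19 ± 0.11 at 1455373_at and 0.00 ± 0.09 at 1419392_at.

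Plcd1 and Pcdh17 were high in AC5 hearts. Plcd1, the phospholipase, lay between 1.28 and 3.35 in AC5 hearts (median 1.91) at 1448432_at, with -0.29 to 0.18 in ARG, -0.31 to 0.20 in GLY and -0.09 to 0.12 in NTG hearts. All AC5 hearts stood above all others, and the receptor hearts overlapped with NTG. The difference was 2.06 ± 0.20 for AC5 minus NTG, -0.17 ± 0.20 for ARG minus NTG and -0.14 ± 0.20 for GLY minus NTG. In AC5 it was 1.80 in the first set and 2.33 in the second, which holds the highest heart, replicate 5 (3.35).

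The other Plcd1 probe set, 1416675_s_at, did not follow. AC5 hearts lay between -0.32 and -0.03 there and NTG hearts between -0.16 and 0.18, a difference of -0.15 ± 0.08. The annotation names the same RefSeq transcript for both Plcd1 probe sets, which does not settle what their probes read. RefSeq lists 2 start windows for Plcd1, and which of its transcripts each probe set reads is not analysed here.

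Pcdh17, the protocadherin, was high at both of its probe sets. At 1453070_at AC5 hearts lay between 1.35 and 2.44 (median 1.85), ARG hearts between -0.51 and 0.19, GLY hearts between -0.87 and 0.24 and NTG hearts between -0.46 and 0.38. At 1436920_at AC5 hearts lay between 1.13 and 2.10, ARG hearts between -0.51 and 0.40, GLY hearts between -0.29 and 0.09 and NTG hearts between -0.24 and 0.17. No AC5 heart overlapped with another genotype at either probe set. AC5 minus NTG was 1.98 ± 0.20 at 1453070_at and 1.58 ± 0.15 at 1436920_at. All AC5 hearts of the first set were above those of the second at 1453070_at and at 1436920_at, and AC5 minus NTG in these sets was 2.42 and 1.53 at 1453070_at and 1.89 and 1.27 at 1436920_at. GLY minus NTG at 1453070_at was -0.34 ± 0.20, with -0.61 in the first set and -0.08 in the second.

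**Figure D2:**
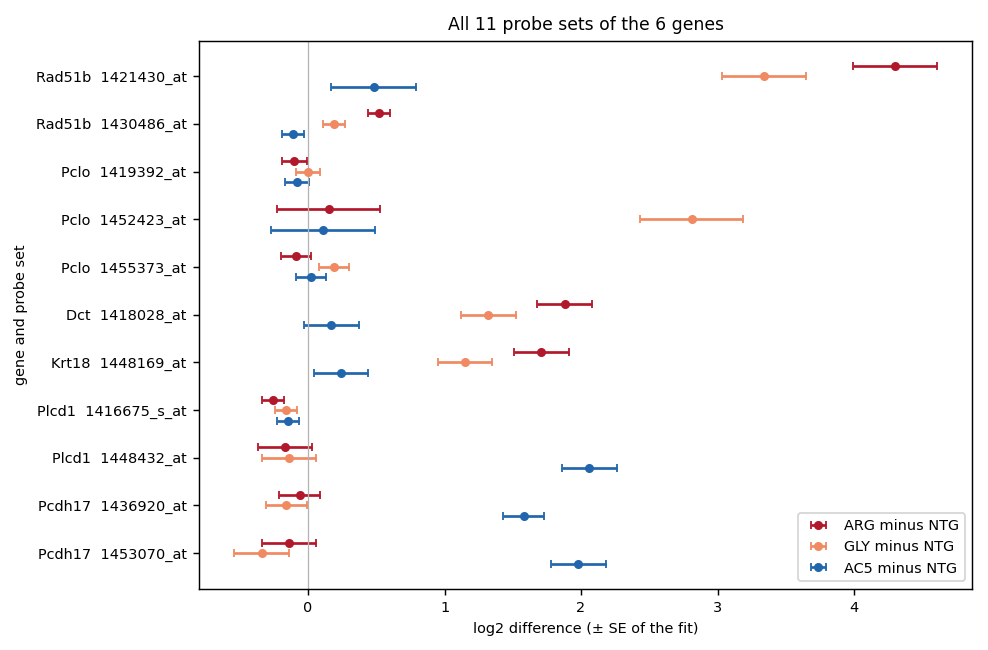
Fitted log2 differences ± SE (horizontal axis) of the 11 probe sets of the 6 genes (vertical axis) in ARG, GLY and AC5 hearts, each minus NTG, with 6 hearts per genotype. Pcdh17 is high at both probe sets in AC5, while the rises of Pclo and Plcd1 stand at 1 probe set each and that of Rad51b is far larger at 1421430_at (4.30 in ARG) than at 1430486_at (0.52).

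Among the 11 probe sets, 4 were called higher and 1 lower in ARG than in NTG hearts (background over all probe sets 4.04% higher and 5.63% lower, 9.67% in all). The 1 lower was Plcd1 1416675_s_at (-0.26 ± 0.08). In GLY 4 were called higher (background 1.55% of 5.08% in all) and in AC5 3 (background 0.0688% of 0.142% in all). All hearts of the transgenic line were above all NTG hearts at 4 probe sets in ARG, 4 in GLY and 3 in AC5, against 2.32%, 1.07% and 0.488% of all probe sets. The genes were chosen on these contrasts, so nothing is read from these counts. The median difference over the 11 probe sets was -0.06 in ARG, 0.19 in GLY and 0.17 in AC5, beside 0.00, 0.03 and 0.00 over all probe sets. By size of the fitted rise, Rad51b 1421430_at ranked 2 of 45037 in both ARG and GLY, Pclo 3 in GLY, and Plcd1 8, Pcdh17 9 and 11 in AC5. Dct and Krt18 ranked 21 and 27 in ARG, and 10 and 13 in GLY.

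At the leading probe sets of Rad51b, Dct and Krt18 the GLY hearts differed more among themselves than the ARG hearts did. The SD of Rad51b 1421430_at was 1.17 in GLY and 0.15 in ARG, that of Dct 0.65 and 0.38, and that of Krt18 0.60 and 0.38. Among all 11 probe sets, the SD was smaller in GLY than in ARG at Rad51b 1430486_at (0.11 and 0.16), Plcd1 1448432_at (0.19 and 0.21) and Pcdh17 1436920_at (0.13 and 0.36). GLY replicates 1 to 6 had 1.60, 2.80, 4.09, 4.35, 2.75 and 4.62 for Rad51b, 0.75, 0.89, 1.93, 1.65, 0.56 and 2.07 for Dct, and 0.85, 0.49, 2.08, 1.16, 0.64 and 1.55 for Krt18. Replicates 3, 4 and 6 were the highest GLY hearts for all of these genes, within or near the range of ARG hearts. Pclo ran otherwise, with replicates 2 and 5 highest and replicates 3 and 6 lowest. For Rad51b, GLY replicates 3, 4 and 6 stood at 4.09 to 4.62 and replicates 1, 2 and 5 at 1.60 to 2.80. No correlation over these 6 hearts is given. Array weights, limma's measure of how well an array follows its group, were 0.354, 0.568, 0.312, 1.64, 1.50 and 0.715 for GLY replicates 1 to 6. The lowest were those of replicate 3, among the highest for Rad51b, and replicate 1, the lowest for it.

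**Figure D3:**
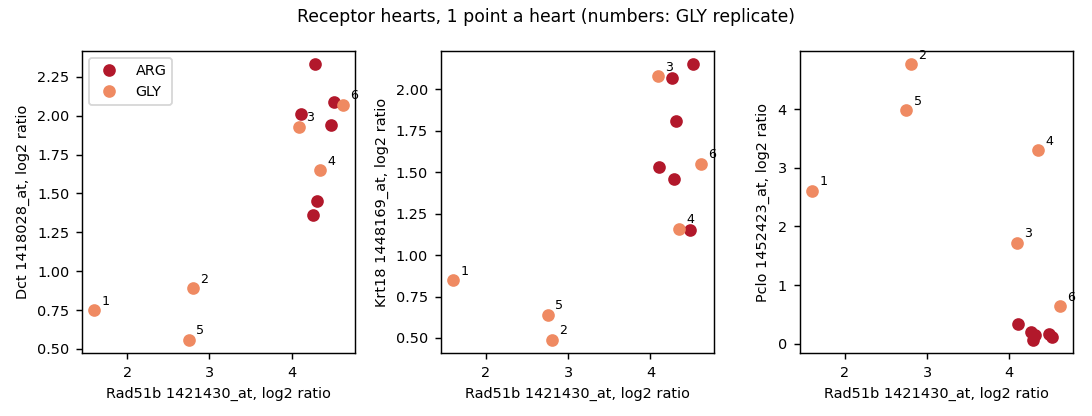
Dct, Krt18 and Pclo (vertical axes) against Rad51b 1421430_at (horizontal axes) in the ARG and GLY hearts, as log2 ratios, with 1 point per heart and the GLY replicate number beside its point. GLY replicates 3, 4 and 6 lie at 4.09 to 4.62 for Rad51b beside the ARG hearts, and replicates 1, 2 and 5 lie at 1.60 to 2.80.

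Genes related to the 6 were followed in 9 lists with 148 measured genes, 1 probe set each. Of these 15 were called in ARG against NTG (10.1%, background over all genes 11.3%), 5 in GLY (3.38%, background 5.45%) and 0 in AC5 by limma (background 0.176%), where 12 had an unadjusted p under 0.05. The shares called in ARG and GLY were thus no higher than the background. The highest listed gene stood at 0.73 in ARG (Vim), 0.41 in GLY (Krt80) and 0.24 in AC5 (Wt1). The 6 genes were chosen for large rises and the listed genes were not, so the sizes are not set against each other. After quantile normalization none of the 5 GLY calls was left (adjusted p from 0.0664 to 0.218), and in ARG the calls of Plcg1, Prkcb, Pcdh12, Celsr1 and Myl3 were lost (from 0.0552 to 0.251).

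Of 18 genes of homologous recombination, none rose with Rad51b in ARG hearts, and 1 fell, Rad51ap1 (-0.57 ± 0.10, adjusted p = 0.000286), which takes part in that repair. In GLY 1 rose, the motor protein gene Rad54l (0.27 ± 0.07, adjusted p = 0.0316), a call lost when any of 5 single arrays was left out (adjusted p up to 0.0884). In AC5 none was called by limma (background 0.176%), with 4 at an unadjusted p under 0.05. The list median was -0.07 in ARG, -0.02 in GLY and -0.06 in AC5.

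Of 21 active zone genes, none was called in GLY hearts (background 5.45%), and none had an unadjusted p under 0.05 there. Bsn, the bassoon homolog of Pclo, stood at 0.03 ± 0.13 in GLY minus NTG at 1422023_at, with 0.12 and -0.01 at its other probe sets. The extremes in GLY were Rims4 (0.21 ± 0.11) and Syn2 (-0.26 ± 0.13). In ARG 1 fell, Erc1 (-0.45 ± 0.10, adjusted p = 0.00269), a scaffold with roles outside synapses too. Of 12 nerve markers 0 were called in GLY by limma (1 at an unadjusted p under 0.05), and 1 rose in ARG, the tubulin Tubb3 (0.30 ± 0.07, adjusted p = 0.00461). The mean of these markers per heart ranged from -0.07 to 0.15 in GLY and from -0.05 to 0.07 in NTG.

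Of 15 melanocyte markers other than Dct, limma called none in ARG, GLY or AC5 hearts (background 11.3%, 5.45% and 0.176%). At an unadjusted p under 0.05 there were 3, 0 and 0. Tyr, the tyrosinase gene, stood at -0.08 ± 0.09 in ARG and 0.07 ± 0.09 in GLY at 1448821_at, and Tyrp1, a related melanin enzyme, at -0.12 ± 0.08 and 0.11 ± 0.08 at 1415861_at. Mlana, a melanosome protein, had the highest value of the list in both lines, 0.36 ± 0.14 in ARG and 0.27 ± 0.14 in GLY (adjusted p = 0.11 and 0.281). The mean of the markers per heart ranged from -0.05 to 0.19 in ARG, from -0.05 to 0.18 in GLY and from -0.04 to 0.02 in NTG. Whether melanocytes contributed to the Dct values was not tested.

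Of 16 keratins and filament partners, 2 rose and 1 fell in both ARG and GLY. Vim, the filament protein vimentin of mesenchymal cells, rose by 0.73 ± 0.11 in ARG (adjusted p = 4.58e-05) and 0.40 ± 0.11 in GLY (0.0327). Krt80, another keratin, rose by 0.62 ± 0.12 in ARG (0.000847) and 0.41 ± 0.12 in GLY (0.0445), and Krt10, a keratin of epidermis, fell by 0.60 ± 0.12 and 0.48 ± 0.12 (0.000947 and 0.016). The GLY calls of Vim and Krt80 were lost when any of 5 and of 8 single arrays was left out (adjusted p up to 0.0822 and 0.131). Krt8, the partner with which Krt18 forms filaments, was called at none of its 3 probe sets, with 0.02 to 0.24 in ARG and -0.02 to 0.07 in GLY (adjusted p from 0.0589 to 0.95 over both lines). Of 13 mesothelium and epithelium markers none rose in ARG or GLY, and 1 fell in ARG, Upk3b (-0.76 ± 0.16, adjusted p = 0.00153). The mean of these markers per heart ranged from -0.16 to 0.06 in ARG, from -0.10 to 0.07 in GLY and from -0.07 to 0.10 in NTG.

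Of 25 genes of phospholipase C signalling, limma called none in AC5 hearts, with 2 at an unadjusted p under 0.05. The background in AC5 was 0.176% of all genes, so a list of this size without a call says little. Plcd3, the sister enzyme of Plcd1, fell by 0.80 ± 0.09 in ARG (adjusted p = 9.75e-07) and 0.37 ± 0.09 in GLY (0.015), and stood at -0.36 ± 0.09 in AC5 without a call (0.142). The inhibitory relative Plcl2 (-0.50 ± 0.11) and Plcg1 (-0.31 ± 0.09) fell in ARG, and Plcg2 (0.40 ± 0.09) and the kinase Prkcb (0.32 ± 0.09), both prominent in blood cells, rose there. The ARG calls of Plcg1 and Prkcb were lost when any of 9 and of 5 single arrays was left out (adjusted p up to 0.0699 and 0.095).

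Of 19 protocadherins and other large cadherins, limma called none in AC5 hearts (background 0.176%, so this too says little). None had an unadjusted p under 0.05 there, with Pcdh19 highest (0.15 ± 0.14). In ARG the endothelial protocadherin Pcdh12 (-0.48 ± 0.14, adjusted p = 0.0252) and Celsr1, a planar polarity cadherin (-0.56 ± 0.17, adjusted p = 0.0373), fell, calls lost when any of 4 and of 8 single arrays was left out (up to 0.0777 and 0.102). Of 10 heart muscle markers 1 was called, the myosin light chain Myl3 in ARG (-0.18 ± 0.05, adjusted p = 0.027, up to 0.0703 without single arrays). Myh6, whose promoter drove the transgenes, stood at -0.37 ± 0.20 in ARG, -0.34 ± 0.20 in GLY and -0.15 ± 0.20 in AC5, without a call.

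**Figure D4:**
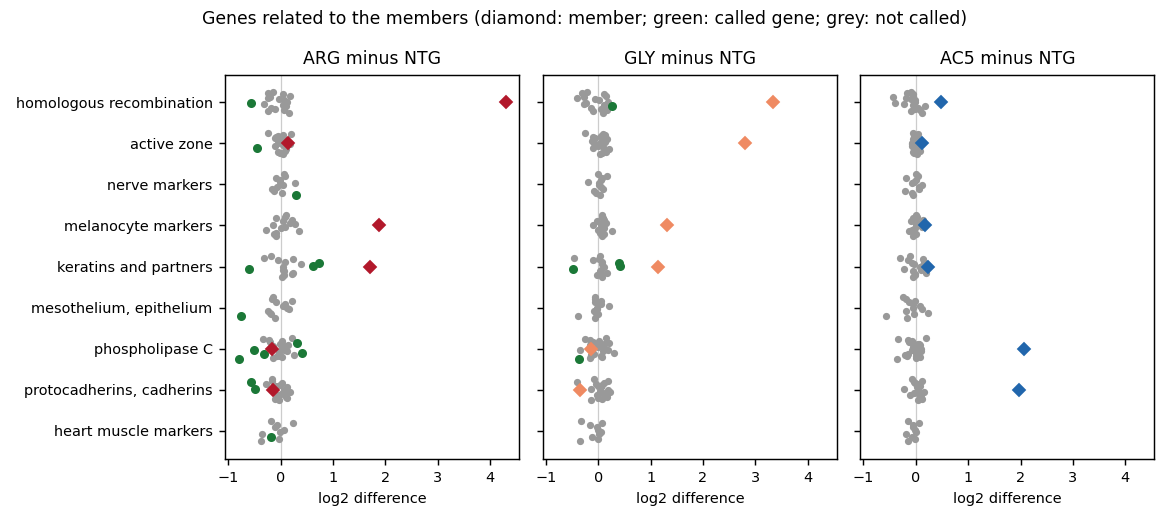
Fitted log2 differences (horizontal axis) of the 148 listed genes by list (vertical axis) in ARG, GLY and AC5 hearts, each minus NTG. Diamonds are the member that belongs to a list, green points genes called by limma and grey points genes not called, and the listed genes lie between -0.80 and 0.73 in ARG.

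The genes beside each of the 6 on the chromosome were also followed. The neighbours are the 10 nearest measured genes on each side by gene order in RefSeq (GRCm38.p6), 120 in all. Of these 8 were called in ARG against NTG (6.67%, background 11.3%), 3 in GLY (2.5%, background 5.45%) and 1 in AC5 (0.833%, background 0.176%). At this number of neighbours the shares in ARG and GLY were below the background. The share in AC5 was above it through a single call, beside Dct. With 20 genes on each side, 240 in all, 27 were called in ARG, 15 in GLY and 1 in AC5. The shares thus depend on the number of neighbours taken. After quantile normalization the ARG calls of Actn1, Cacna2d1 and Naa16, the GLY call of Cacna2d1 and the AC5 call of Abcc4 were left among those described next, and the others were lost (adjusted p from 0.0873 to 0.227).

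Rad51b lies on chromosome 12 between Zfyve26 (-0.10 ± 0.14 in ARG) and 9430078K24Rik (0.16 ± 0.10). Its 20 neighbours ranged from -0.45 to 0.57 in ARG, where Actn1, encoding alpha-actinin 1, rose by 0.57 ± 0.12 at the fourth gene after it (adjusted p = 0.00125) and 2310015A10Rik at the third fell by 0.45 ± 0.12 (0.0148). In GLY Dcaf5 at the fifth rose by 0.28 ± 0.08 (adjusted p = 0.0386) at 1 of its 5 probe sets, a call lost when any of 8 single arrays was left out (up to 0.0941). At that probe set Dcaf5 stood at 0.29 ± 0.08 in AC5 and 0.15 ± 0.08 in ARG, without a call by limma (adjusted p = 0.175 and 0.28). At its other probe set Rad51b stood at 0.52 in ARG, within the range of these neighbours.

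Pclo lies on chromosome 5 between Sema3e (0.07 ± 0.08 in GLY) and Speer8-ps1 (0.14 ± 0.07). Of its 20 neighbours 1 was called in GLY, Cacna2d1, a calcium channel subunit, which fell by 1.24 ± 0.26 (adjusted p = 0.00499) at the fourth gene after Pclo, at 1 of its 5 probe sets, and fell by 0.97 ± 0.26 in ARG too (0.0144), at 2 of 5. The highest GLY value of these neighbours was 0.16.

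Dct lies on chromosome 14 between Gpc6 (0.21 ± 0.11 in ARG, 0.22 ± 0.11 in GLY) and Tgds (0.25 ± 0.10 and -0.01 ± 0.10). Of its 20 neighbours 0 were called in GLY by limma, with 2 at an unadjusted p under 0.05. Abcc4, a transporter that can export cAMP, rose by 0.31 ± 0.09 in ARG (adjusted p = 0.0277) and 0.45 ± 0.09 in AC5 (0.0324) at the sixth gene after Dct. In GLY Abcc4 stood at 0.27 ± 0.09 without a call by limma (adjusted p = 0.0758). The ARG and AC5 calls were lost when any of 6 and of 8 single arrays was left out (adjusted p up to 0.0726 and 0.113).

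Krt18 lies on chromosome 15 between Krt8, described above, and Eif4b, a translation initiation factor that rose by 0.29 ± 0.08 in ARG (adjusted p = 0.0147, and 0.0513 without ARG replicate 4). In GLY Krt73 at the ninth gene before Krt18 rose by 0.31 ± 0.09 (adjusted p = 0.0405), a call lost when any of 8 single arrays was left out (up to 0.109). The 20 neighbours ranged from -0.30 to 0.29 in ARG and from -0.24 to 0.31 in GLY.

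Plcd1 lies on chromosome 9 between Vill (-0.01 ± 0.09 in AC5) and Acaa1b (-0.13 ± 0.10). Its 20 neighbours ranged from -0.16 to 0.07 in AC5, with 0 called and 0 at an unadjusted p under 0.05 by limma. The background in AC5 was 0.176% of all genes, so 0 called of 20 says little, here and for Pcdh17. Pcdh17 lies on chromosome 14 between Olfm4 (-0.10 ± 0.09 in AC5) and 9630013A20Rik (-0.01 ± 0.08), and its 20 neighbours ranged from -0.31 to 0.12 in AC5, with 0 called by limma and 1 at an unadjusted p under 0.05. In ARG, where neither gene was high, Naa16 (-0.60 ± 0.13, adjusted p = 0.00289) and Wbp4 (-0.33 ± 0.10, 0.0268) fell before Pcdh17 and Cmc1 (-0.27 ± 0.09, 0.0495) before Plcd1. The calls of Wbp4 and Cmc1 were lost when any of 5 and of 9 single arrays was left out (up to 0.0732 and 0.127).

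**Figure D5:**
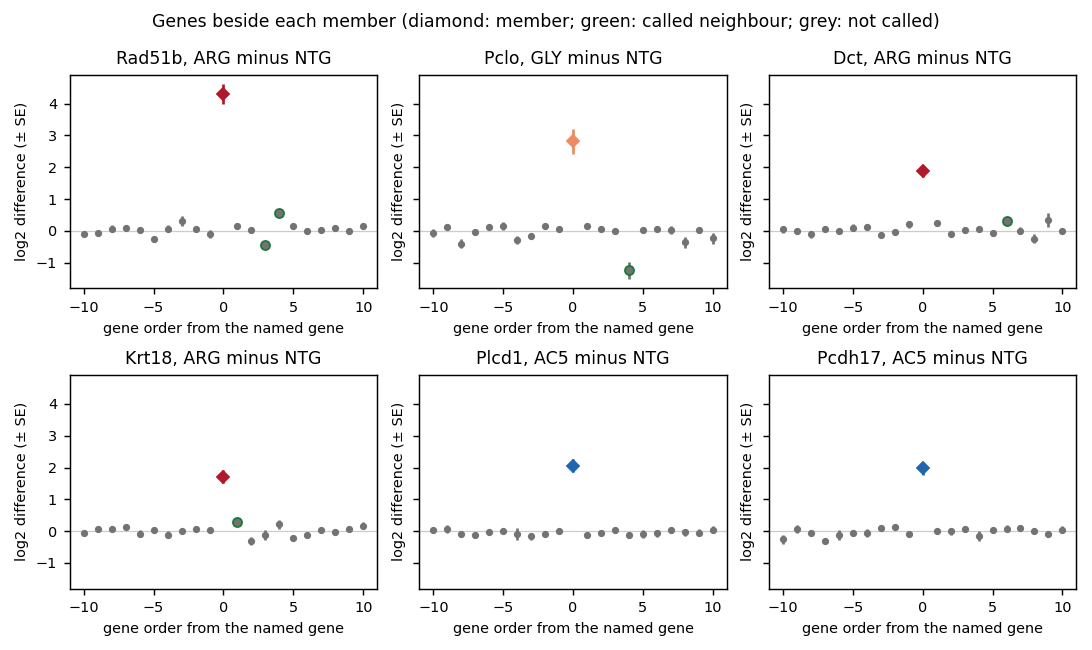
Fitted log2 differences ± SE (vertical axis) of the 10 measured genes on each side of each member, by gene order (horizontal axis), in a line where the member was high (ARG for Rad51b, Dct and Krt18, GLY for Pclo, AC5 for Plcd1 and Pcdh17), minus NTG. Diamonds are the members and green points called neighbours. The members were chosen for their rises and are drawn at their leading probe set, so their height above the neighbours follows from that choice, and the neighbours lie between -1.24 and 0.57.

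The genes whose values followed each member most closely were ranked by Pearson's r over the 24 arrays, which share genotype means, so the r describes these arrays only. For Rad51b 1421430_at they were Grk5, a receptor kinase (r = 0.98), Nudt4, a hydrolase of inositol pyrophosphates (r = 0.96), and Dct (r = 0.95). Grk5 had mean levels of 1.54 in ARG, 1.00 in GLY, 0.10 in AC5 and 0.00 in NTG hearts. For Dct they were Rad51b (r = 0.95), Nudt4 (0.94) and Grk5 (0.93). For Krt18 they were Apod, a lipid-binding apolipoprotein (r = 0.95), Lgals3, a lectin of activated macrophages (0.95), and Timp1, an inhibitor of matrix proteases (0.94). Lgals3 had mean levels of 2.77 in ARG, 1.51 in GLY, 0.22 in AC5 and 0.02 in NTG hearts, and the part of infiltrating cells in the Krt18 values was not tested.

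For Plcd1 1448432_at the closest genes were Phgdh, the first enzyme of serine synthesis (r = 0.85), Pcdh17 at 1436920_at (0.84) and Gpt2, a mitochondrial alanine aminotransferase (0.83). For Pcdh17 1453070_at they were Aldh1l2, a mitochondrial folate enzyme (r = 0.83), Phgdh (0.83) and Plcd1 (0.82). Plcd1 and Pcdh17 were both picked for a rise in AC5 hearts, and that shared rise enters their r. AC5 replicates 1 to 6 had 1.92, 1.91, 1.69, 1.28, 3.35 and 2.6 for Plcd1 1448432_at. The same hearts had 1.74, 1.93, 2.1, 1.28, 1.35 and 1.13 for Pcdh17 1436920_at. Replicates 5 and 6, the highest for Plcd1, were below replicates 1 to 3 at both Pcdh17 probe sets. Replicate 4 was low for both genes. Phgdh at 1437621_x_at had mean levels of 2.36 in AC5, 0.88 in ARG, 0.46 in GLY and 0.03 in NTG hearts, so it was highest where Plcd1 and Pcdh17 were high but was not at the NTG level in the receptor lines. For Pclo 1452423_at the closest were Lrrc31 (r = 0.78), Utp14b (0.75) and Impact (0.75), whose mean GLY levels were 0.20, 0.12 and 0.36, with 2.84 for Pclo.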

How the data were processed

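Total RNA of mouse hearts was extracted with Trizol and biotin-labelled cRNA was hybridised to Affymetrix arrays, per the labels' protocols. RMA is named in the submitters' processing notes, without a version. The deposited values are linear ratios to the non-transgenic level, which was read from the values, since the step of division is stated nowhere in the sources used. Log2 was taken. Of 45101 probe sets, 64 Affymetrix controls were left out. Of the rest 34945 had 1 gene symbol, 932 several and 9160 none in the annotation table, which was updated through Entrez identifiers to RefSeq (GRCm38.p6). A single limma model (limma 3.58.1, R 4.3.3) over the 24 arrays held a mean for each genotype, with empirical Bayes moderation, and p was adjusted over 45037 probe sets. The number of arrays limits the precision. A listed or neighbouring gene with several probe sets was represented by the plain _at suffix first, then the lowest number. A member was shown at all its probe sets and led by that with the largest fitted rise in the line it was picked for. Plots used matplotlib 3.10.9, and tables pandas 2.3.3 with numpy 2.4.6 (Python 3.11.15). The fit was tested on simulated data. No brightness filter was possible.

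The members, lists and alternatives were chosen with earlier results of these data known. Named genes were the members, the 3 closest genes to each, called genes of the lists and neighbours, immediate neighbours, and Krt8, Tyr, Tyrp1, Bsn, Adcy5 and Myh6. Another gene in that rule is not reported here. Extremes of some lists without a call are not printed. Of 156 listed genes 148 matched. Alternatives were quantile normalization, median centring, a replicate block, the replicate sets, array weights, 2-genotype fits, trend and robust moderation, single arrays left out and, chosen after seeing the data, the arrays of weight under 0.5 left out and all of these for Dct and Krt18 in ARG.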

Additional observations from a re-analysis of the deposited data

Results flagged for a closer look

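Over the 44 groups of 6 hearts at the 11 probe sets, 2 held a heart whose gap to the next was wide for the group's range (Dixon's 95% limit), a rate that chance alone can give, since about 1 group in 20 is so marked. At Plcd1 1416675_s_at GLY replicate 2 was lowest at -0.48, with the other GLY hearts at -0.16 to 0.02. At Plcd1 1448432_at NTG replicate 3 was lowest at -0.09, with the other NTG hearts at 0.05 to 0.12.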

How the results depend on the processing

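Rad51b, Dct and Krt18 in ARG and GLY, Pclo in GLY, and Plcd1 and Pcdh17 in AC5 kept their direction in every setting run. The genes were picked for large rises in these same values, so the kept direction is no separate support. In ARG quantile normalization gave 2.98 for Rad51b, 1.28 for Dct and 1.10 for Krt18, and the cause was not tested. Leaving out single arrays gave 4.23 to 4.36 for Rad51b, 1.78 to 1.98 for Dct and 1.62 to 1.82 for Krt18 in ARG, 3.08 to 3.69 for Rad51b, 2.43 to 3.25 for Pclo, 1.17 to 1.47 for Dct and 0.96 to 1.28 for Krt18 in GLY, and 1.82 to 2.23 for Plcd1 and 1.87 to 2.09 for Pcdh17 in AC5.

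Counts moved more, and the cause was not tested. Calls over all probe sets in ARG were 4355, against 2400 after quantile normalization, 1302 within replicates 1 to 3, 2517 within replicates 4 to 6 and 3490 to 4533 without single arrays. They rose to 5855 with array weights and 5931 without arrays of low weight. In GLY they were 2286, against 633 after quantile normalization, and 2740 and 72 within replicates 1 to 3 and 4 to 6. The GLY calls were 2817 with array weights, 1247 with 2 genotypes alone, 1475 with trend and robust moderation, 1312 without arrays of low weight and 1337 to 3961 without single arrays. In AC5 they were 64, against 398 after quantile normalization, 18 and 0 within replicates 1 to 3 and 4 to 6, 525 with array weights, 299 with 2 genotypes, 23 with trend and robust moderation, 188 without arrays of low weight and 22 to 90 without single arrays.

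Listed genes called in ARG were 15, against 4 and 10 within replicates 1 to 3 and 4 to 6, 22 by any probe set and 11 to 15 without single arrays. In GLY they were 5, against 0 after quantile normalization, 2 after median centring, and 6 and 0 within replicates 1 to 3 and 4 to 6. The GLY count was 2 with 2 genotypes, 1 with trend and robust moderation, 3 without arrays of low weight and 2 to 7 without single arrays. In AC5 they were 0, against 3 after quantile normalization, 3 with array weights, 2 with 2 genotypes, 2 without arrays of low weight and 0 to 1 without single arrays. With 5, 10 and 20 genes on each side the neighbours were 60, 120 and 240 genes. Neighbours called in ARG were 8 of 120, against 3 after quantile normalization, 1 and 3 within replicates 1 to 3 and 4 to 6. They were 5 with trend and robust moderation, 14 by any probe set, 4 and 27 with 5 and 20 genes on each side and 5 to 8 without single arrays. In GLY they were 3, against 1 after quantile normalization, 1 after median centring, 6 and 0 within the sets, 1 with 2 genotypes, 1 with trend and robust moderation, 1 without arrays of low weight, 5 by any probe set, 15 with 20 genes on each side and 1 to 9 without single arrays. In AC5 they were 1, against 4 after quantile normalization, 0 with the replicate block, 0 and 0 within the sets, 3 with array weights, 2 with 2 genotypes, 0 with trend and robust moderation, 2 without arrays of low weight, 0 with 5 genes on each side and 0 to 1 without single arrays.

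The main fit did not take the replicate numbers to pair the hearts. Same-numbered deviations correlated above 0.1 in 16 of 36 pairs (-0.289 to 0.492), which does not settle whether the numbers pair them. Such correlations were in 5 of 6 pairs between GLY and ARG (0.053 to 0.492) and 5 of 6 between AC5 and ARG. Between AC5 and GLY they were in 3 of 6, and for each line with NTG in 0 to 2 of 6. Of the 6 GLY hearts 3 were closest to the ARG heart of their own number, and of the 6 ARG hearts 3 to the GLY heart of theirs. With the replicate block Rad51b stayed at 4.30 in ARG and 3.34 in GLY, Pclo at 2.81, Dct at 1.32, Krt18 at 1.15, Plcd1 at 2.06 and Pcdh17 at 1.98, Dct and Krt18 in ARG at 1.88 and 1.71, and calls were 4551 in ARG, 2574 in GLY and 71 in AC5. Under the block Krt80 in GLY (adjusted p = 0.0604), Cmc1 in ARG (0.0565) and Abcc4 in AC5 (0.054) were no longer called by limma. Ratios hold no brightness, so dim probe sets limit these values to an unknown degree.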
